A study of Mus musculus with 40 samples.

Results

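Nuclear receptors are transcription factors that bind DNA, many of them as dimers with a retinoid X receptor (RXR), and that in many cases change activity when a small lipophilic ligand binds. Thyroid hormone, retinoic acid, vitamin D, oxysterols, bile acids and steroids are such ligands, and other members have no settled ligand. In fat cells the family is best known for PPARγ, which drives adipocyte differentiation, and for the receptors of thyroid hormone, retinoids and oxysterols, which act on thermogenic and lipid genes.

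The 41 nuclear receptor genes described here are the mouse receptor genes on the rule's list, which leaves out the genes of PPARα, PPARγ, ERRα and ERRγ. They are 41 of 21911 protein-coding genes annotated in the mouse build mm10 (GENCODE M21). The mark was H3K27ac, an acetylation of histone H3 found at active promoters and enhancers, measured by ChIP-seq in cultured preadipocytes from inguinal white fat of C57BL/6 mice. Cells came from wild-type (WT) mice or from mice lacking both nucleosome-binding proteins HMGN1 and HMGN2 (Hmgn1-/-Hmgn2-/-, double knockout, DKO), and both genotypes had the same medium. They were taken as preadipocytes at day 0 and at days 3, 6 and 9 of induced conversion to brown-like adipocytes, with 3 libraries in each of the 8 groups and 24 in all. The differentiation medium held insulin, dexamethasone, IBMX, T3 and rosiglitazone, so that ligands of the thyroid hormone receptors, the glucocorticoid receptor and PPARγ were added to both genotypes, and the maintenance medium held insulin and T3. The loss was in the whole animal, and the mice that gave the cells were between 8 and 12 weeks old. The libraries of a group are described as biological replicates, but which animals or cultures they came from is not given in the sources used here, and the p-values measure the spread between these libraries.

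A gene was scored over its annotated span with 5 kb upstream. Spans of some receptor genes overlap other protein-coding genes (Thra and Nr1d1, Rarb and Top2b, Nr2c2 and Mrps25, Nr2f6 and Ocel1, Nr1i3 and Tomm40l). Peaks in these overlaps, and any peak of a neighbouring gene in the 5 kb upstream, counted for the receptor gene. At Rxrb the 2 regions called in at least 3 libraries had their strongest summits upstream of the gene. The quantities were taken from each library's peak list: whether a peak was present, the length of the span lying under peaks (in kb), and the best rank of the gene's peaks when the list was ordered by −log10 q, rank 1 being the strongest peak of that library. Long genes can hold more kb, so kb were compared between libraries and not between genes. The peak lists held 47448 to 115923 peaks and covered 20.7 to 96.4 Mb of the genome. Covered length differed between the groups: day 0 libraries averaged 50.6 ± 4.30 Mb in WT and 67.3 ± 25.7 Mb in DKO, day 3 libraries 44.6 ± 11.8 and 34.9 ± 6.19 Mb, day 6 libraries 57.5 ± 2.60 and 30.8 ± 8.76 Mb, and day 9 libraries 55.4 ± 6.32 and 64.5 ± 3.90 Mb (mean ± SD, n = 3). Some libraries stood apart from the others of their group. DKO day 0 replicate 2 had peaks with a median width of 1076 bp and covered 96.4 Mb, and WT day 3 replicate 3 covered 31.1 Mb. DKO day 6 replicate 3 had the fewest peaks (47448) and the least covered length of all libraries, 20.7 Mb. The other DKO day 6 libraries covered 35.4 and 36.3 Mb. Unlike the libraries named before it, this one was not left out singly. Hmgn2 held a peak in 12 of 12 WT and 0 of 12 DKO libraries, while Hmgn1 held one in 12 of each. Of the 7 adipocyte marker genes tested, 7 gained kb from day 0 to day 9, where 16.4% of all genes gained. Of the 5 brown adipocyte markers tested, 4 gained and 0 lost, while Ucp1 held no peak in any library and was not tested. Less signal per cell and fewer cells carrying a mark cannot be told apart in these bulk libraries.

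Most receptor genes were marked throughout. A peak was found in all 24 libraries at 25 of the 41 genes (61.0%), where the share among all protein-coding genes was 50.9%. At 6 genes (14.6%, against 27.4% of all genes) no library held a peak: Nr2e1 and Nr2e3, receptors of neural and photoreceptor cells, Nr5a1 and Nr5a2, which act in steroidogenic tissue and in liver and pancreas, and Nr0b1 and Nr0b2, atypical receptors without a DNA-binding domain. A single library held a peak at Nr1i3 (the xenobiotic receptor CAR, WT day 0 replicate 3), at Hnf4g (WT day 3 replicate 3) and at Esr2 (oestrogen receptor β, DKO day 9 replicate 3). The other 7 genes were marked in some libraries: Hnf4a in 21, Nr3c2 in 19, Nr1i2 in 17, Nr1h4 and Rxrg in 15 each, and Esrrb and Pgr in 9 each. The 9 genes with a peak in fewer than 3 libraries were not tested, which left 32.

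**Figure D1:**
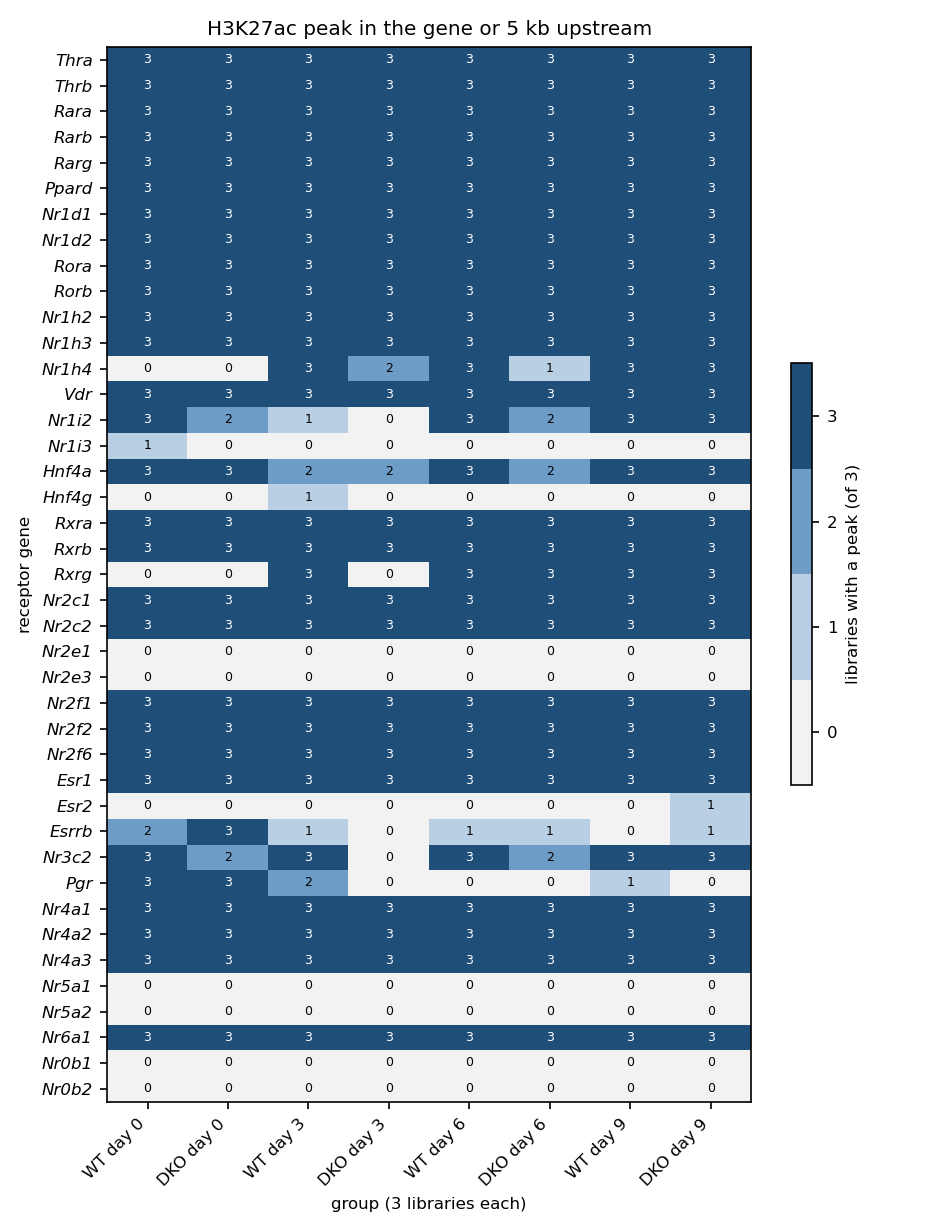
Number of libraries (of 3) with an H3K27ac peak in each of the 41 receptor genes or in the 5 kb upstream, in the 8 groups of genotype and day. The 25 genes marked in every library fill their rows with 3, and Nr1h4 and Rxrg read 0 in both genotypes at day 0 and 3 in both at day 9.

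Presence by day separated the intermediate genes. Rxrg, which encodes RXRγ, had no peak in any of the 6 day 0 libraries, had one in 3 of 3 WT and 0 of 3 DKO libraries at day 3, and had one in all 6 libraries at day 6 and again at day 9. Nr1h4, the gene of the bile acid receptor FXR, was likewise without a peak at day 0, and at day 6 all 3 WT libraries and 1 DKO library called one. Nr3c2, the mineralocorticoid receptor gene, held a peak in 3 of 3 WT and 0 of 3 DKO libraries at day 3. Pgr, the progesterone receptor gene, went the other way in time, with a peak in 6 of 6 libraries at day 0 and in 1 of 6 at day 9 (WT replicate 2). The WT day 3 calls were short, at 0.262 to 0.285 kb for Rxrg and 0.205 to 0.733 kb for Nr3c2. Covered length at day 3 averaged 44.6 Mb in WT and 34.9 Mb in DKO. The share of all genes with a peak in 3 of 3 WT and 0 of 3 DKO libraries was not counted.

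The strongest peaks belonged to Nr2f2, the gene of the orphan receptor COUP-TFII, an inhibitor of adipogenesis in culture. Its best rank ran from 8 to 3489 with a median of 331.5 over the 24 libraries. Rxrb (RXRβ) followed with ranks of 154 to 1754, then Nr1d1 (the circadian repressor REV-ERBα, 147 to 4445), Nr1h3 (the oxysterol receptor LXRα, 561 to 4635) and Rxra (501 to 4816). The ranges of these 5 genes overlapped. Weakest among the 25 constantly marked genes were Rarb (16727 to 60130), Esr1 (2999 to 58472) and Rorb (7900 to 45134).

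**Figure D2:**
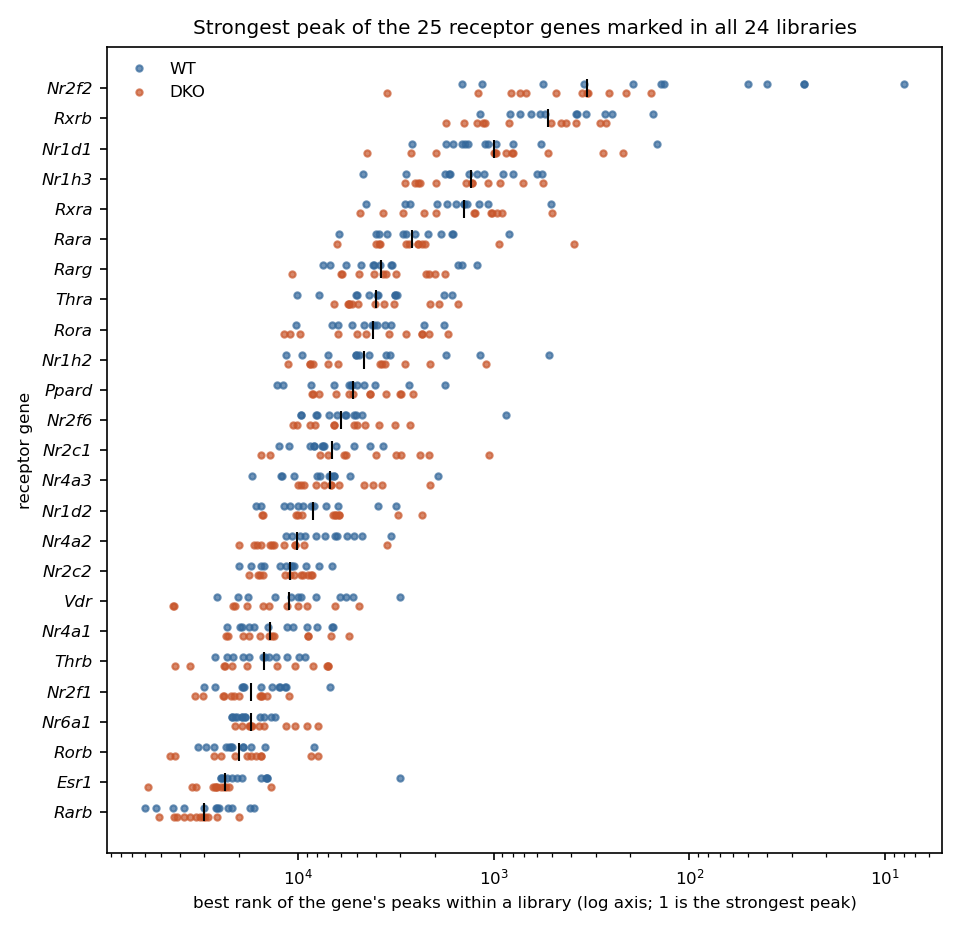
Best rank of each receptor gene's peaks in each library on a log axis, with the strongest rank to the right, for the 25 genes marked in all 24 libraries (points are libraries, the black tick is the median). Nr2f2 reaches rank 8, in WT day 3 replicate 1, and Rarb, Esr1 and Rorb have the weakest medians.

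In both genotypes the strongest peak of Nr2f2 ranked higher in every library of days 3, 6 and 9 than in every day 0 library of that genotype. At day 0 its best ranks were 562, 1149 and 1446 in WT and 815, 1194 and 3489 in DKO. At day 3 they were 8, 40 and 346 in WT and 157, 479 and 211 in DKO. At day 6 the ranks were 50, 26 and 26 in WT and 334, 731 and 329 in DKO, and at day 9 they were 139, 193 and 134 in WT and 352, 258 and 679 in DKO. The genotypes overlapped at days 0 and 3 and did not overlap at days 6 and 9, where every WT library ranked the gene higher. By best rank 12.2% of all genes tested had this pattern at day 6 and 9.08% at day 9.

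Over all libraries the 41 spans held 491 merged regions (peaks of any libraries that overlapped, joined) at 35 genes, and 255 of these were called in at least 3 libraries. At 20 of the 41 genes a region with its strongest summit within 1 kb of a transcription start (a start region) was called in all 24 libraries. Start regions were not counted over all protein-coding genes, so this number has no background and cannot be called high or low. A region that covers a start but has its strongest summit further away was not counted, and Nr2f2 had 0 start regions by this rule. At Rarb the start region was called in 15 libraries, at Rxrg in 15 and at Nr1h4 in 11. Of the 255 regions, 18 (7.06%) were called in 6 of 6 libraries at day 9 and in 0 of 6 at day 0, where the share of all such regions in the genome was 4.67%. They lay at 8 genes, with 4 each at Thrb (thyroid hormone receptor β) and Rora (RORα), 2 each at Rarb (retinoic acid receptor β), Rorb (RORβ), Ppard (PPARδ) and Nr1h4, and 1 each at Rxrg and Nr1i2 (the pregnane X receptor). The reverse pattern was seen at 1 region, in an intron of Ppard (0.392%, against 2.38%).

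Sequence at the strongest summits shows where these changes lay. The windows below are 299 bp wide and centred on the summit, read on the plus strand of GRCm38 (the sequence of mm10), and none touches an annotated exon. Capitals mark matches to AGGTCA, the core element that many nuclear receptors bind, or to TGANTCA, the core of AP-1 sites, on either strand. Of 91914 windows of this width at regions called in at least 3 libraries, 18.5% held AGGTCA, 8.90% held TGANTCA and 0.0555% held AGGTCANAGGTCA, which contains the first motif at both ends. The first 3 windows are regions absent from all libraries of days 0 and 3 and called in all 12 libraries of days 6 and 9.
Thrb, chr14:17786066-17786364: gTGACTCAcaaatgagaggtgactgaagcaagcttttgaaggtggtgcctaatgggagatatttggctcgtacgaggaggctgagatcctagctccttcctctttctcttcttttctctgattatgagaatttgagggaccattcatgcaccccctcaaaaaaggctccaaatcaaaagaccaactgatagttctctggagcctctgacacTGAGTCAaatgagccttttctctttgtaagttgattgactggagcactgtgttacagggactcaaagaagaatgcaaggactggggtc
Thrb, chr14:17864177-17864475: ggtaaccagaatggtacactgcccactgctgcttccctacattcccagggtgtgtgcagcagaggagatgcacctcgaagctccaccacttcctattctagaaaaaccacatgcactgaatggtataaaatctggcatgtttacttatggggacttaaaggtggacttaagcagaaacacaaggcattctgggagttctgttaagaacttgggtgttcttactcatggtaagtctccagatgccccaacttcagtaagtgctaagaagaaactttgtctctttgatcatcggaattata
Rora, chr9:69230182-69230480: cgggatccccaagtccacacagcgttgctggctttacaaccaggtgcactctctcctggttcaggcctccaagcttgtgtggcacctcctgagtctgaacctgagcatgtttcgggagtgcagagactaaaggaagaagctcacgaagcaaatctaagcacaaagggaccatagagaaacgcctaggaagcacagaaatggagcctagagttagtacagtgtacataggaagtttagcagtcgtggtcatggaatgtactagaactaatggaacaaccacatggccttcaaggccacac
The next window is an intronic region of Thrb that at day 9 was called in 3 of 3 DKO and 0 of 3 WT libraries, and at day 6 in 2 of 3 and 3 of 3.
Thrb, chr14:17899972-17900270: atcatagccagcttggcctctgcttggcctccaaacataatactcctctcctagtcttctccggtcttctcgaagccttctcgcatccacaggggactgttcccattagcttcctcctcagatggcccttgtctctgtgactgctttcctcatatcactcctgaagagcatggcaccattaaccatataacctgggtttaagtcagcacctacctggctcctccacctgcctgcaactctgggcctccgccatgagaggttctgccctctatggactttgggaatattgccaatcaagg
The following window lies 2.92 kb upstream of a start of Nr2f2, in a region that all 3 WT and no DKO libraries called at day 3. Over all days 12 of the 24 libraries called this region.
Nr2f2, chr7:70369506-70369804: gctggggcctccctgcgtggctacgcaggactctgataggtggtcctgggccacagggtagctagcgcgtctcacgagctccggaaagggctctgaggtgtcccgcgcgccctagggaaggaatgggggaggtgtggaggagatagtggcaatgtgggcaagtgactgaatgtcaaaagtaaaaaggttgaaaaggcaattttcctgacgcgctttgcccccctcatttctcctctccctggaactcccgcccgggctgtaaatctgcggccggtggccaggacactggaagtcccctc
The last 3 windows were called at day 6 by every WT library and by no DKO library, in introns of Rarb and Rora and upstream of a start of Vdr, the vitamin D receptor gene. Over all days and both genotypes these regions were called in 19, 21 and 16 of the 24 libraries.
Rarb, chr14:16513161-16513459: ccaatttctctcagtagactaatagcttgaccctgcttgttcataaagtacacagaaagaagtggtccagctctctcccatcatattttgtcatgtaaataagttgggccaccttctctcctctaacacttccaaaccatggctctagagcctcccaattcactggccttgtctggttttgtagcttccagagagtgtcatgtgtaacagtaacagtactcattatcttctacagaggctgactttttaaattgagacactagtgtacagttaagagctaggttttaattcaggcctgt
Rora, chr9:69125211-69125509: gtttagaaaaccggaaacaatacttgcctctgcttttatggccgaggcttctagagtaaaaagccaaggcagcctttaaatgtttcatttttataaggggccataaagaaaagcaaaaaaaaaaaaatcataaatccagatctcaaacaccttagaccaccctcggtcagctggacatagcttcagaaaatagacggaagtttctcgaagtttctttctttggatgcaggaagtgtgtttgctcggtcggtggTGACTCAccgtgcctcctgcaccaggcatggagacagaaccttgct
Vdr, chr15:97913679-97913977: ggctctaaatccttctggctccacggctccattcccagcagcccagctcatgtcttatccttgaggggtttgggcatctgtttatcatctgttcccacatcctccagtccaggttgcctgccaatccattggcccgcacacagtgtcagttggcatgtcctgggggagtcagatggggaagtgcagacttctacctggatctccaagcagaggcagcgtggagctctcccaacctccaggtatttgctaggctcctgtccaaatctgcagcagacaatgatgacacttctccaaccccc
AGGTCA was in none of the 8 windows, and TGANTCA was in 2 of them, with 2 matches at chr14:17786066-17786364 and 1 at chr9:69125211-69125509. These are counts of letters in the windows and not sites.

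The change from preadipocyte to brown-like adipocyte was tested on the kb under peaks by an exact permutation test that relabelled days 0 and 9 within each genotype (two-sided, smallest possible p 0.005), with Benjamini-Hochberg adjustment over 15183 genes. Of the 32 genes tested, 10 gained kb: Thrb, Rarb, Rorb, Nr1h4, Vdr, Rxrg, Nr2c1, Nr2f1, Nr3c2 and Nr4a3. Over all genes 16.4% gained. One gene lost kb, Rarg, at a background of 14.8%. Without DKO day 0 replicate 2 the gains numbered 15, at a background of 30.9%, and the added genes were Thra, Ppard, Rora, Nr2f2 and Nr2f6. The same test was run for the steps from day 0 to 3, 3 to 6 and 6 to 9. From day 0 to 3 Rorb and Vdr gained, and Rarg, Nr1d1, Nr1h2 and Nr1h3 lost. No receptor gene passed at the later steps. The shares of all genes that passed these steps are not given here, so the calls have no background.

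Among the thyroid hormone receptors, Thrb rose in both genotypes. In WT it had 0.913, 1.79 and 2.06 kb at day 0 and 4.46, 7.82 and 6.12 kb at day 9. In DKO it had 2.41, 5.25 and 2.39 kb at day 0 and 11.3, 10.5 and 12.5 kb at day 9. Every day 9 library of a genotype exceeded every day 0 library of that genotype, and the mean difference was 6.31 kb (exact permutation p = 0.005, adjusted p = 0.0203). Thra, the gene of the other thyroid hormone receptor, had means of 13.1 kb at day 0 and 16.1 kb at day 9 and missed the threshold (adjusted p = 0.0584, exact permutation test). The 3′ end of Thra overlaps Nr1d1, and peaks in the overlap count for both genes.

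Of the retinoic acid receptor genes, Rarb rose, Rarg fell and Rara did not pass the test. Rarb had 2.50, 3.04 and 2.67 kb in WT and 1.35, 5.22 and 1.91 kb in DKO at day 0. At day 9 it had 3.37, 6.41 and 5.55 kb in WT and 7.58, 5.31 and 6.23 kb in DKO, and the mean difference of 2.96 kb passed (adjusted p = 0.0203, exact permutation test). All day 9 libraries lay above the day 0 libraries of their genotype. Rarb overlaps Top2b, and peaks there count for Rarb. Rarg fell from a mean of 8.82 kb at day 0 to 7.27 kb at day 9 (difference -1.54 kb, adjusted p = 0.0203, exact permutation test). Its libraries had 8.36, 8.61 and 8.31 kb in WT and 8.02, 11.5 and 8.12 kb in DKO at day 0, against 6.69, 7.92 and 8.13 kb and 7.13, 7.24 and 6.54 kb at day 9. Rara had means of 26.9 and 24.996 kb and did not pass (adjusted p = 0.662, exact permutation test).

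Vdr and Rorb more than doubled their mean kb. Vdr rose from 1.77 to 4.34 kb (difference 2.57 kb), and Rorb, a relative of the circadian activator RORα, rose from 1.43 to 3.84 kb (difference 2.41 kb, both with adjusted p = 0.0203, exact permutation test). By library Vdr held 1.62, 1.32 and 2.38 kb in WT at day 0 and 3.04, 4.22 and 5.16 kb at day 9, and in DKO 0.879, 2.75 and 1.66 kb against 5.09, 4.34 and 4.18 kb. For both genes the libraries of the 2 days did not overlap within a genotype. Rora itself had the larger difference of means, 6.57 kb, but its DKO day 0 libraries ran from 15.5 to 38.5 kb and the test was not passed (adjusted p = 0.207, exact permutation test).

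Of the RXR genes, Rxrg rose from 0 kb in all 6 day 0 libraries to 0.517, 0.401 and 0.748 kb in WT and 0.852, 0.852 and 0.469 kb in DKO at day 9 (mean difference 0.640 kb, adjusted p = 0.0203, exact permutation test). Nr1h4 rose from 0 kb to 1.49, 2.29 and 1.18 kb in WT and 2.02, 1.32 and 1.60 kb in DKO, with the same adjusted p. Peak lists hold only values above the authors' threshold, so 0 kb means that no peak was called. Rxra and Rxrb had mean differences of -3.69 and -0.00500 kb and did not pass (adjusted p = 0.5495 and 1.00, exact permutation test).

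The other 4 gains lay between 0.532 and 1.33 kb. The orphan receptor genes Nr2c1 (TR2) and Nr2f1 (COUP-TFI) gained 1.19 and 1.33 kb (adjusted p = 0.0203 and 0.0481, exact permutation test). Nr3c2 gained 0.532 kb (adjusted p = 0.0203) and Nr4a3, an immediate early gene induced by cAMP, gained 0.816 kb (adjusted p = 0.0481, both exact permutation tests). The calls of Nr2f1 and Nr4a3 were lost when peaks needed −log10 q of at least 5, with the gene span alone, with 20 kb upstream or when genes with a peak in at least 1 library were tested, each with 8 gains (backgrounds 13%, 14.9%, 17.6% and 14.7%). For Nr4a3 the difference turned negative in the 20000 strongest peaks of each library and in the best rank. When kb were divided by the covered length of each library, 12 genes gained and 4 lost (backgrounds 22.4% and 21.9%): Thra and Rora joined the gains, and Nr1d2, Rxra and Nr4a1 joined Rarg.

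**Figure D3:**
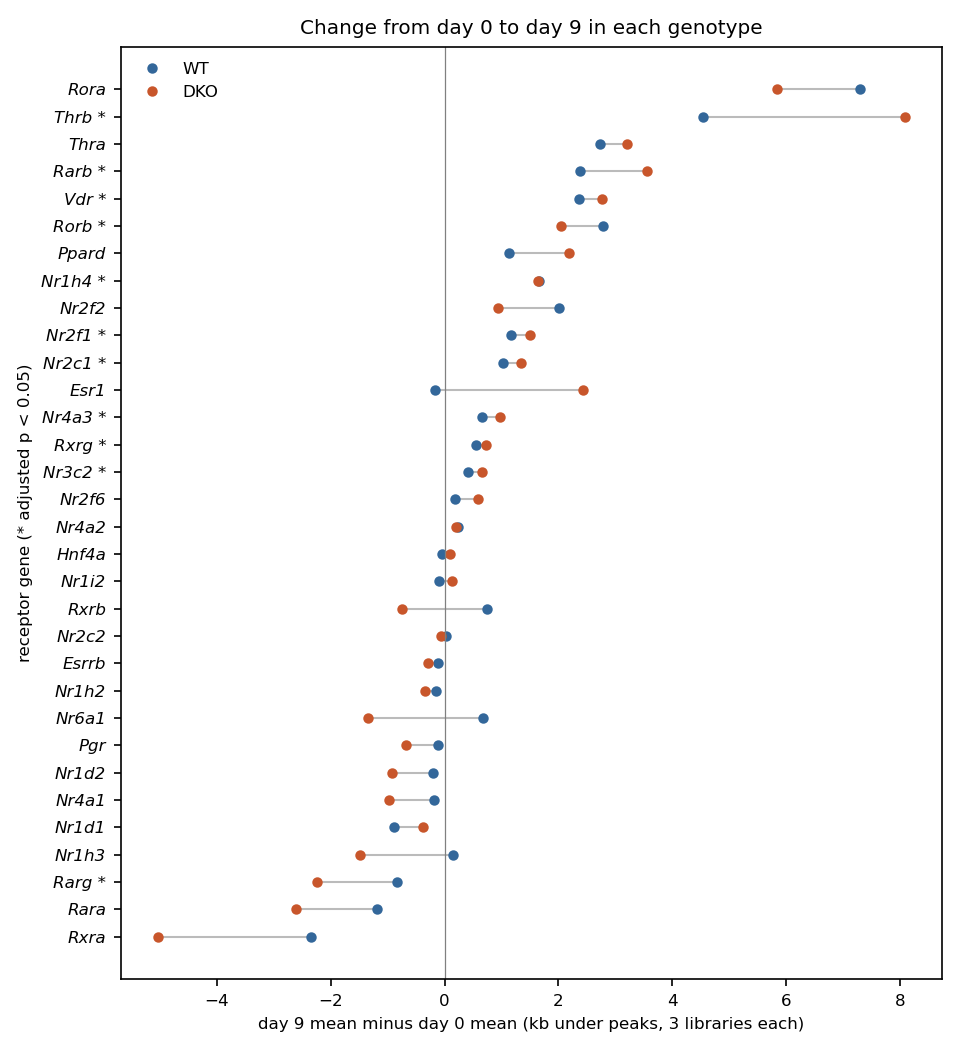
Difference between the day 9 and day 0 means (kb under peaks, 3 libraries each) for the 32 tested receptor genes, with WT and DKO as separate points and an asterisk for an adjusted p under 0.05 over both genotypes. Thrb gained 4.55 kb in WT and 8.08 kb in DKO, and Rarg lost in both.

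The effect of losing HMGN1 and HMGN2 was first tested over the 4 days together. The exact permutation test relabelled genotypes within each day (two-sided, smallest possible p 1.25e-05) and passed 0 of 32 genes in either direction after adjustment, where 0.125% of all genes were lower and 0.0263% were higher in DKO. Before adjustment 5 of the 32 (15.6%) had p under 0.05, against 9.87% of all genes. The lowest p was that of Nr2f2 (mean DKO minus WT difference over the days -1.97 kb, p = 0.00186, adjusted p = 0.187, exact permutation test). Without DKO day 0 replicate 2 this gene passed (-2.20 kb, adjusted p = 0.0304), as it did when the best rank was tested (adjusted p = 0.0387, exact permutation tests). It was lower in DKO also by limma. It did not pass when kb were divided by covered length (adjusted p = 0.667) or within 250 bp of summits, where the difference was positive (0.652 kb, adjusted p = 0.586, exact permutation tests).

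Divided by the library's covered length, 2 genes were lower in DKO over the 4 days, Rarb (adjusted p = 0.0331) and Rora (adjusted p = 0.00190), and 3 were higher, Thrb (0.00709), Nr1h3 (0.00488) and Nr2c2 (the orphan receptor TR4, 0.0191, all exact permutation tests). Over all genes 5.70% were lower and 9.18% higher on this scale, so the shares of receptor genes, 6.25% and 9.38%, were close to the background. In kb the Nr1h3 difference was 0.751 kb, and 0.237 kb with the gene span alone, and neither passed the test.

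The genotypes were then compared at each day by whether the 3 WT and 3 DKO libraries overlapped, since 3 against 3 cannot give an exact p below 0.1. At day 0, 4 genes were higher in every DKO than in every WT library (Thrb, Nr1h3, Rxrb and Nr6a1, the germ cell nuclear factor gene) and 0 were lower, beside backgrounds of 18.4% and 0.705%. Without DKO day 0 replicate 2 the same 4 genes were higher, and 7 were lower, among them Rarb, Rora and Nr2f1 (backgrounds 18.6% and 9.38%). With the gene span alone 3 were higher and Rxrb was not (background 17%). Nr1h3 had 4.67, 5.17 and 5.56 kb in WT and 6.92, 10.001 and 7.36 kb in DKO, a difference of 57.6% of the WT mean. Per covered length its groups overlapped at day 0.

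At day 3, 5 genes were lower in every DKO library and 0 were higher (backgrounds 10.8% and 0.863%). These were Rxrg, Nr2f2, Nr2f6 (EAR2), Nr3c2 and Nr4a3. Rxrg had 0.285, 0.284 and 0.262 kb in WT and 0 kb in the 3 DKO libraries. Nr2f2 had 12.4, 12.3 and 11.0 kb in WT and 9.15, 10.6 and 8.98 kb in DKO. Without WT day 3 replicate 3 the number lower rose to 21, at a background of 51.5%. Per covered length 6 genes were lower, Rarb, Ppard, Rora, Rxrg, Esr1 and Nr3c2 (background 7.73%), and 2 were higher, Nr1h3 and Rxra (12.2%). Nr2f2, with 0.279 kb per covered Mb in WT and 0.277 in DKO, overlapped on that scale, as did Nr2f6 and Nr4a3.

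Day 6 held the widest genotype difference. In 26 of 32 genes (81.3%) every DKO library had fewer kb than every WT library, and in 0 genes more; over all genes these shares were 59.6% and 0.0856%. The 6 exceptions were Thrb, Nr1i2, Rxrg, Nr2c1, Esrrb and Pgr, whose groups overlapped. The median difference was -41.2% of the WT mean among receptor genes and -36.3% among all genes, in libraries whose covered length averaged 57.5 Mb in WT and 30.8 Mb in DKO.

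Among the 25 constantly marked genes the largest day 6 differences in percent of the WT mean were those of Rarb, Esr1 (-71.7%) and Vdr. Rarb had 5.90, 5.57 and 5.54 kb in WT and 1.75, 1.195 and 0.545 kb in DKO, a difference of -79.5%. Rora had 39.6, 36.4 and 43.6 kb in WT and 18.1, 18.1 and 8.37 kb in DKO, a difference of -62.7%. Vdr had 3.71, 3.62 and 4.12 kb against 1.33, 1.60 and 0.536 kb, a difference of -69.7%. For these 3 genes the gap between the groups was wider than the range within either. Nr1h4 had 1.56, 1.67 and 1.61 kb in WT, and in DKO one library had 0.185 kb and the others had none. Thrb, by contrast, had 5.95, 4.53 and 5.02 kb in WT and 5.84, 6.86 and 3.73 kb in DKO, groups that overlapped.

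Per covered length the day 6 picture divided. On that scale 7 genes were lower in every DKO library (Rarb, Rarg, Rora, Rorb, Nr1h4, Vdr and Hnf4a) and 10 were higher (Thrb, Rara, Nr1d1, Nr1d2, Nr1h3, Rxrb, Nr2c1, Nr2c2, Nr2f2 and Nr2f6), where 14.4% of all genes were lower and 37.8% higher. Rarb held 0.0988 kb per covered Mb in WT and 0.0362 in DKO, and Rora held 0.693 and 0.472. Thrb held 0.0901 kb per covered Mb in WT and 0.178 in DKO. Nr2f2, lower in kb, was higher per covered Mb (0.213 and 0.269), so that its direction at day 6 depended on the scale.

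At day 9, 9 genes were higher in every DKO library and 0 were lower (backgrounds 29.3% and 2.08%): Thra, Thrb, Ppard, Nr1h3, Rxra, Nr2c2, Nr2f6, Esr1 and Nr4a1. Esr1, the gene of oestrogen receptor α, had 2.53, 2.97 and 3.96 kb in WT and 7.66, 6.07 and 6.24 kb in DKO, a difference of 111%. Thrb had 86.4% more kb in DKO than in WT. Ppard, a receptor for fatty acids, had 7.77, 7.47 and 7.05 kb in WT and 10.1, 10.3 and 10.013 kb in DKO, a difference of 36.8%. The other 6 genes lay between 13.9% (Thra) and 40.4% (Nr2c2). The median difference was 16.0% among receptor genes and 14.4% among all genes. Per covered length 3 genes were higher, Thrb, Esr1 and Nr4a1 (background 13.4%), and 3 were lower, Rarg, Rxrb and Nr2f2 (13.5%).

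**Figure D4:**
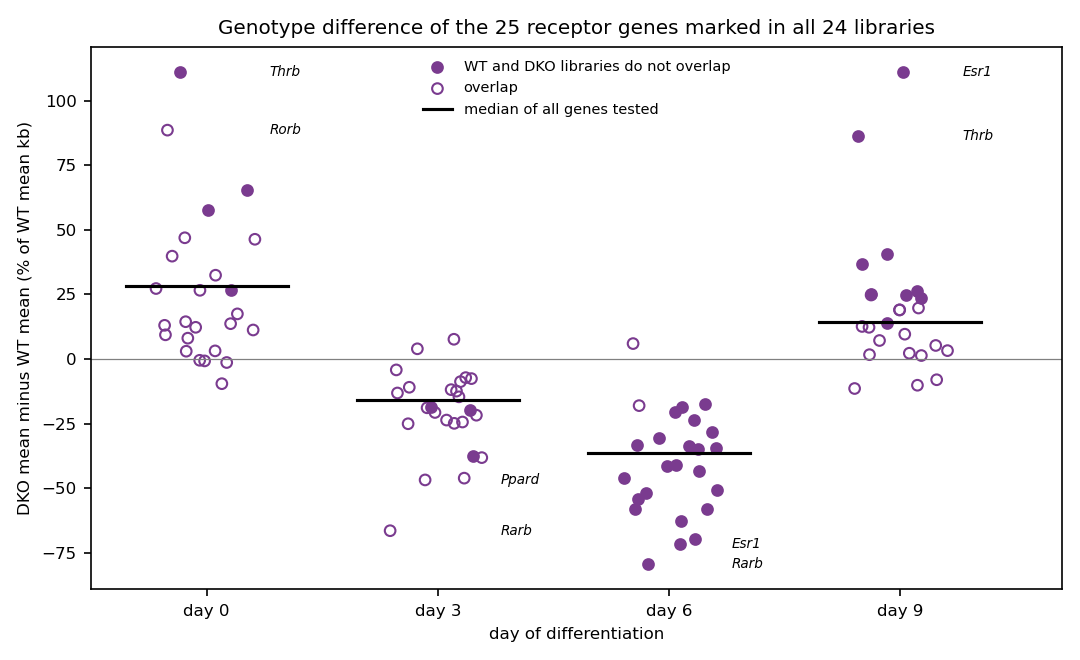
DKO mean minus WT mean in percent of the WT mean kb at each day, for the 25 receptor genes marked in all 24 libraries (filled points where the ranges of the 2 genotypes were apart), with the median of all genes tested as a line. Points lie below 0 for 23 genes at day 3 and 24 at day 6 (Thrb is above) and lie above 0 for 21 genes at day 0 and 22 at day 9 (Rarg, Rxrb and Nr2f2 are below), and Rarb is lowest at days 3 and 6.

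The DKO mean lay below the WT mean at 30 of the 32 genes at day 6 and at 5 at day 9. Over all genes these shares were 91.4% and 20.1%. At 8 genes the libraries of the 2 genotypes were also apart on both days, in opposite directions. Thra, Ppard, Nr1h3, Rxra, Nr2c2, Nr2f6, Esr1 and Nr4a1 were lower in every DKO library at day 6 and exceeded every WT library at day 9. They were 25% of the 32 genes tested, where 16.3% of all genes had this pattern. Per covered length 0 of the 8 were lower in every DKO library at day 6, 3 were higher (Nr1h3, Nr2c2 and Nr2f6), and at day 9 Esr1 and Nr4a1 were higher. Whether the genotype difference changed with day was tested by an exact permutation test on the variance of the 4 daily differences, which passed 5 of 32 genes (15.6%) at a background of 17.1%: Ppard, Nr1d2 (REV-ERBβ), Nr2f6, Esr1 and Nr6a1. Without WT day 3 replicate 3 it passed 13 genes, at a background of 31.8%. For Esr1 the differences in kb at days 0, 3, 6 and 9 were 0.906, -1.79, -3.45 and 3.504. For Ppard they were 1.67, -2.45, -3.74 and 2.73. Per covered length 0 receptor genes passed this test, at a background of 0.0988%.

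**Figure D5:**
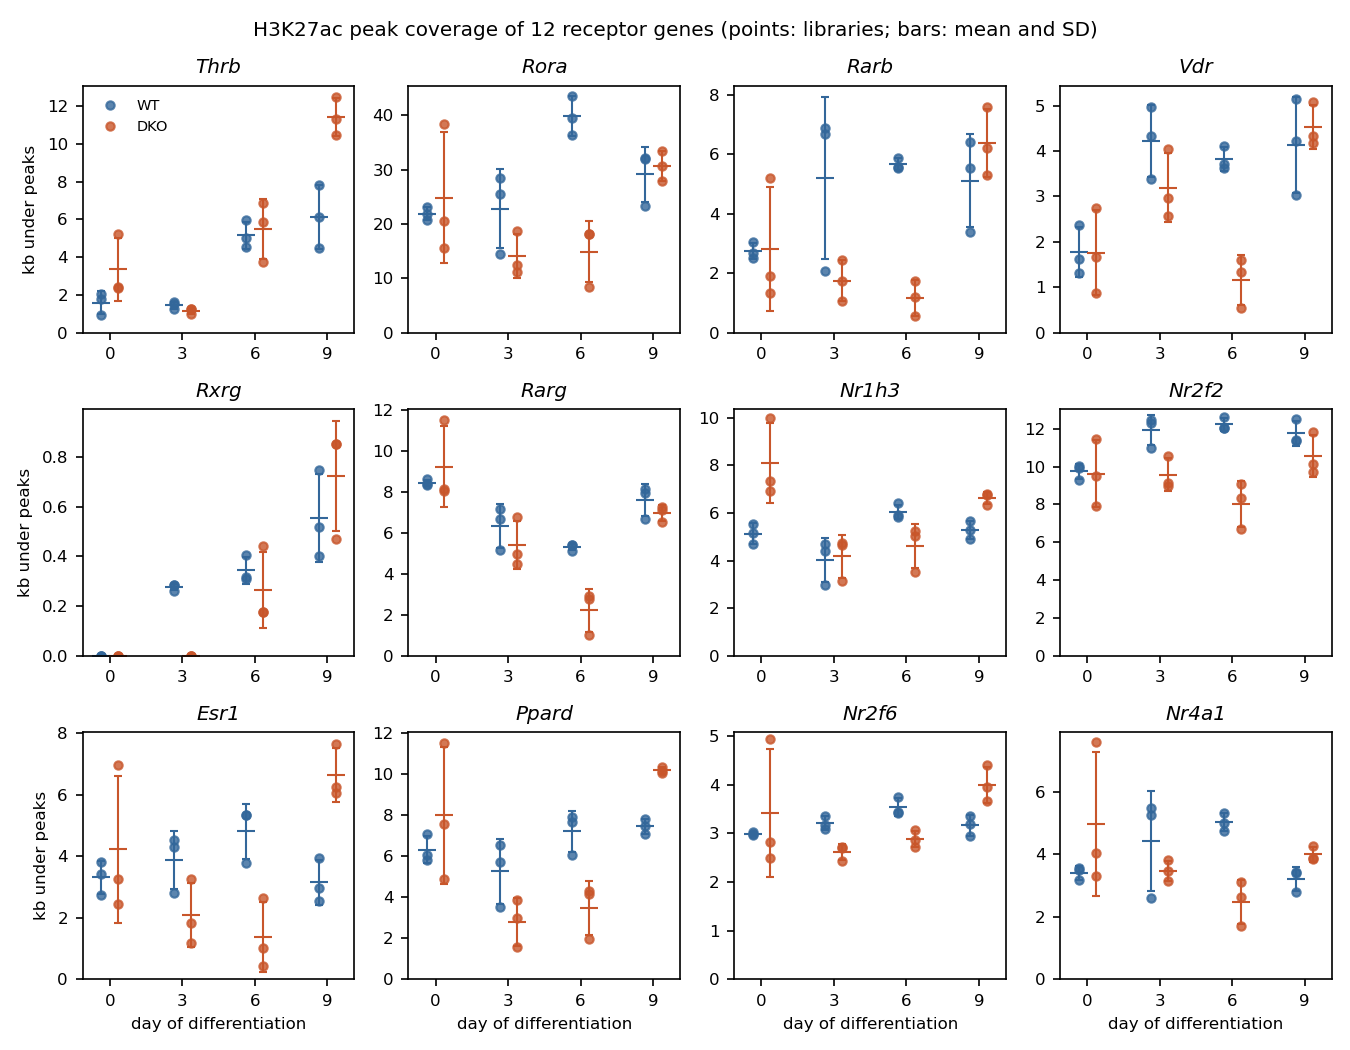
Kb under H3K27ac peaks against day of differentiation for 12 receptor genes (points are libraries, bars are mean and SD of 3, WT in blue and DKO in orange). Rarb, Rora and Vdr show DKO libraries below WT at day 6, Thrb and Esr1 show DKO libraries above WT at day 9, and the high DKO point at day 0 is replicate 2 in Esr1, Ppard, Nr2f6 and Nr4a1.

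Single regions were counted next. Among the 255 regions, those called by every WT and by no DKO library of a day numbered 1 for day 0, 4 for day 3 (1.57%), 31 for day 6 (12.2%) and 0 for day 9. The shares of all regions were 1.09%, 1.66%, 8.37% and 0.71%. The 31 regions of day 6 lay at 11 genes, and the strongest by median −log10 q were chr9:69124717-69125641 in an intron of Rora (16.3), chr14:16512810-16514416 in an intron of Rarb (15.8) and the start region of Nr3c2 at chr8:76902333-76902648 (12.8). Over all days and both genotypes these 3 regions were called in 21, 19 and 14 of the 24 libraries. Regions in all 3 DKO and no WT library numbered 1 at day 0, 0 at days 3 and 6 and 6 at day 9 (2.35%), where the shares of all regions were 1.37%, 0.181%, 0.0718% and 2.68%. The 6 regions of day 9 lay at Rora, Esr1, Thrb and Ppard, the strongest at chr9:69284571-69285185 (9.85) in an intron of Rora, called in 8 of the 24 libraries.

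Genes that work with these receptors showed changes over time of both kinds. Of the other nuclear receptor genes, 5 of 7 gained kb by day 9 and 0 lost, where 16.4% of all genes gained and 14.8% lost. All 20 coregulator genes were marked in every library, as were 50.9% of all genes, and 10 gained while 2 lost. Ncoa1, a coactivator, went from 2.06 to 6.61 kb in WT and from 4.21 to 9.84 kb in DKO. Of the enzymes and carriers that make or move ligands, 4 of 15 tested gained and 2 lost, and of the target genes 13 of 18 gained and 3 lost. Aldh1a1, an enzyme of retinoic acid synthesis, went from 9.60 to 23.3 kb in WT and from 12.3 to 25.2 kb in DKO. In these 4 lists 0 genes passed the genotype test over 4 days, where 0.125% of all genes were lower and 0.0263% higher, so a 0 says little. At day 6, in list order, 4, 14, 11 and 12 of the tested genes were lower in every DKO library (59.6% of all genes). At day 9, 5 of 7, 8 of 20, 7 of 15 and 15 of 18 were higher in every DKO library (29.3% of all genes). The immune markers together held between 12.1 and 12.3 kb in the WT day 0 libraries and between 2.87 and 4.81 kb in those of day 9. In DKO the sums were between 16.0 and 34.4 kb, then between 5.26 and 6.01 kb. Of the 5 immune markers tested 3 lost kb, and Cd3e held no peak. The adipocyte markers together held between 9.70 and 11.9 kb in WT libraries of day 0 and between 65.5 and 77.4 kb in those of day 9. In DKO the sums were between 13.7 and 35.1 kb, then between 106 and 112 kb. Of the 4 endothelial markers 3 lost kb by day 9 and 0 gained. Of the 8 preadipocyte and stromal markers 2 lost and 1 gained. At day 6, 7 of these 8 were lower in every DKO library and 0 were higher, where 59.6% of all genes were lower. The part of these cell types, or of a different share of adipocytes, in the receptor values was not tested.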

How the data were processed

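The members and gene lists were chosen with earlier results of these data known. H3K27ac ChIP-seq was deposited for 24 libraries, and 16 input samples were not used here. Per the labels and the study's methods, the authors sequenced single reads, demultiplexed with bcl2fastq 2.17, trimmed with cutadapt 1.18, aligned to mm10 with BWA and called narrow peaks with MACS2 2.1.1.20160309 in each library. The control of each call is not given in the sources used here. Each deposited list gives coordinates, a fold enrichment (ratio) at the summit, −log10 p and −log10 q, and a summit offset. Mapped reads are not in the lists, so depth was judged from peak number and covered length, and a wider or deeper call raises kb at many genes at once.

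Peaks were laid over the 21911 protein-coding genes of GENCODE M21 with 5 kb upstream. Kb under peaks of genes with a peak in at least 3 libraries (15183) were compared by exact permutation tests with Benjamini-Hochberg adjustment (threshold 0.05), in Python 3.11.15 with numpy 2.4.6 and numba 0.67.0. The tests were genotype within days, day 9 against day 0 within genotype, and the variance of the daily genotype differences, and they were tested on simulated data. The day test was also run for the steps between neighbouring days. The study's DiffBind counts need reads and were not repeated. limma 3.58.1 on log2(kb + 0.1) was an alternative, beside stricter peaks, summit windows, other spans, covered length, rank and left-out libraries. No 2 libraries held the same peaks. Per-library values are given for some of the genes past a threshold or apart at 2 or more days, and for some of the largest differences. The other genes are given by mean, difference, range or call alone. The named regions are those called in all libraries of one genotype and none of the other at a day, taken by median −log10 q. The windows printed were picked from the named and day-specific regions after their values were seen. Sequence is from the RefSeq copy of GRCm38.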

Additional observations from a re-analysis of the deposited data

Results flagged for a closer look

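In 5 receptor genes the difference between DKO and WT was not the same at the 4 days by the exact permutation test on the variance of the daily differences. The adjusted p was 0.0232 for Esr1, 0.0244 for Nr6a1, 0.0255 for Nr1d2, 0.0288 for Ppard and 0.0424 for Nr2f6. For Nr6a1 the DKO minus WT differences at days 0, 3, 6 and 9 were 2.59, -0.755, -2.71 and 0.582 kb, for Nr1d2 they were 1.30, -0.728, -0.952 and 0.581 kb, and for Nr2f6 they were 0.431, -0.596, -0.656 and 0.836 kb. Mean covered length of the libraries was also higher in DKO at days 0 and 9 and lower at days 3 and 6. Per covered length 0 of these genes passed.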

How the results depend on the processing

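Genotype over 4 days, with 0 genes lower and 0 higher, gave 1 lower within 250 bp of summits (1.02% of all genes), 1 by rank (1.32%), 1 without DKO day 0 replicate 2 (1.3%), 2 by limma (5.52%), and 2 lower and 3 higher per covered Mb (5.7% and 9.18%). Day 9 against day 0, with 10 gains and 1 loss, gave 15 gains without DKO day 0 replicate 2 (30.9%), 0 and 0 in the 20000 strongest peaks, 4 and 0 within 250 bp of summits (10.8% and 4.11%), 4 losses per covered Mb (21.9%), 2 losses by rank (11.7%) and 2 by limma (15.4%). The losses by rank were Nr2c2 and Nr4a1, and those by limma were Esrrb and Pgr. Rarg, the loss reported above, was thus not called near summits, by rank or by limma. In the 20000 strongest peaks the smallest adjusted p of any gene was 0.0588, so the 0 says nothing of the receptor genes. Leaving out replicate 1, 2 or 3 gave 0 gains and 0 losses, and there the exact p could not go below 0.0556, so these say nothing of stability. Of the 11 genes called, 11 kept their call per covered Mb, 10 by limma and 6 by rank. Nr4a3 reversed in the 20000 strongest peaks (-0.390 kb) and by rank (-0.0216 in −log10 rank, a weaker rank at day 9). The test of a changing genotype difference (5 genes) gave 0 in the 20000 strongest peaks, within 250 bp of summits, per covered Mb, by rank and without replicate 1, 2 or 3, where at most 0.0988% of all genes passed, then 10 with 20 kb upstream (25.3%), 13 without WT day 3 replicate 3 (31.8%) and 17 by limma (33.7%).

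At single days, with the share of all genes in brackets, the genes lower at day 0 (0) became 1 with −log10 q of at least 5 (0.553%), 2 near summits (7.22%), 6 per covered Mb (10.6%), 4 by rank (4.83%), 7 without DKO day 0 replicate 2 (9.38%) and 0 to 7 with a replicate left out, and those higher (4) became 1 near summits (1.5%), 2 per covered Mb (10.9%), 2 with 20 kb upstream (20.1%), 1 by rank (11.3%), 0 by limma (0.981%) and 4 to 12 with a replicate left out. At day 3 those lower (5) became 3 near summits (6.55%), 21 without WT day 3 replicate 3 (51.5%), 1 by limma (0.547%) and 5 to 21 with a replicate left out, and those higher (0) became 1 in the 20000 strongest (1.96%), 1 near summits (2.46%), 2 per covered Mb (12.2%), 1 by rank (8.07%) and 0 to 3 with a replicate left out. At day 6 those lower (26) became 14 in the 20000 strongest (28.8%), 13 near summits (23.5%), 7 per covered Mb (14.4%) and 8 by rank (12.2%), and those higher (0) became 1 near summits (2.14%), 10 per covered Mb (37.8%) and 4 by rank (16%). At day 9 those lower (0) became 1 with −log10 q of at least 5 (1.91%), 2 in the 20000 strongest (2.67%), 1 near summits (2.81%), 3 per covered Mb (13.5%), 4 by rank (9.08%) and 0 to 5 with a replicate left out, and those higher (9) became 5 in the 20000 strongest (15.5%), 2 near summits (10.6%), 3 per covered Mb (13.4%), 2 by rank (11.4%), 0 by limma (0.896%) and 9 to 16 with a replicate left out. With a replicate left out the groups hold 2 libraries each, which are apart more often. The cause of the other shifts was not tested.

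Replicate numbers are shared by the groups, but deviations of same-numbered libraries correlated between -0.837 and 0.898, so the numbers were not taken as pairs. With the replicate block 0 receptor genes, and 0 of all genes, passed in either direction over 4 days, since the smallest adjusted p of any gene was 0.2696.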
